A study of Arabidopsis thaliana with 30 samples.

Results

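Shoots of the Arabidopsis thaliana line VP16-02-003 were compared with shoots of the VP16 pool 2 background by RNA sequencing. The comparison used 6 of the 30 libraries of the series, chosen from their labels alone: VP16-02-003 A, B and C, and VP16 pool 2 background A, B and C, the pool whose number the line carries in its name. Both groups have the labelled genotype VP16, and the 3 Col-0 libraries, set beside them where stated, have the labelled genotype Col-0. All 3 groups are labelled as shoot, with tissue kept in RNA Later and total RNA as the molecule. Where levels are set against the other libraries of the series, these include Col-0, VP16-05-014 and VP16 pool 5 background. They also include lines and pools titled EAR: EAR-13-068, EAR-15-025, EAR-15-053, EAR pool 13 background and EAR pool 15 background. The age of the plants, the growth conditions, the promoter that drives the factor, its target, the make-up of the pool, and whether replicates A, B and C were separate plants are not given in the sources used here, so a p-value reflects the spread of the libraries alone, which may be technical.

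VP16 names a viral protein domain that recruits the transcription machinery, and it is fused to DNA-binding proteins to switch on the genes that they bind. The series concerns artificial zinc-finger factors of this kind, expressed in plants, and the comparison concerns which transcripts set a named line apart from the pool that shares its domain. In the leaf, sulfate is reduced to cysteine or passed to glucosinolates, the sulfur-rich defence compounds of the cabbage family, while jasmonate, flavonoid, starch and clock genes follow defence, light, sugar and time of day.

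Levels are CPM, read counts relative to the size of the library and scaled between libraries with TMM factors, and a gene was called higher or lower at an adjusted p under 0.05 over all genes tested, by edgeR's quasi-likelihood test. Of 19566 genes tested, 5694 (29.1%) were called, 2987 (15.3%) higher and 2707 (13.8%) lower in VP16-02-003 than in pool 2. With library size alone as the scaling the split was 3638 higher and 2017 lower. Of the called genes, 510 (2.61% of those tested) were at least 2-fold higher and 699 (3.57%) at least 2-fold lower. Against Col-0, VP16-02-003 called 4531 genes (23.2%), 2414 higher (12.3%) and 2117 lower (10.8%), in a comparison that shares the VP16-02-003 libraries. In 8776 genes (44.9%) the 3 values of VP16-02-003 and the 3 of pool 2 did not overlap. The median log2 fold change of all genes tested was 0.0094, so list medians can be read against 0. Likewise list counts can be read against 15.3% higher and 13.8% lower. Counts with Col-0 as the control can be read against 12.3% and 10.8%. Groups that do not overlap can be read against 44.9%. Genes described because they were called, or for a small adjusted p, were picked on these same values. A lack of overlap in such genes is therefore no further support. Of the gene lists, 12 had no member called in 1 direction, and in that direction DESeq2 called none and an unadjusted p under 0.05 was reached by 1 heat shock, 1 iron and 1 cell cycle gene alone.

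The VP16-02-003 libraries held 12161681 to 13355417 reads on genes, those of pool 2 held 21302302 to 35316482, and those of Col-0 10076308 to 40780331. Every VP16-02-003 library was shallower than every pool 2 library. Pool 2 C stood apart from pool 2 A and B, with a chi-square on counts, per degree of freedom, of 37.9 and 24.6 to them, 9.94 between A and B and 4.82 to 6.02 among the VP16-02-003 libraries. This measure uses raw counts and grows with depth, so it cannot compare the spread within pool 2 with that within VP16-02-003. Plastid genes took 0.222, 0.247 and 0.403% of reads in VP16-02-003 and 0.132, 0.131 and 0.382% in pool 2. Without pool 2 C the comparison called 4779 genes, 2190 higher and 2589 lower, and without VP16-02-003 B it called 3756, the lowest number with any 1 library left out. What depth, plastid share and the libraries that stand apart contribute to the results was not tested.

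The entry VP16 of the count tables had 7.95, 10.3 and 8.48 CPM in VP16-02-003 and 6.14, 10.6 and 9.73 CPM in pool 2 (log2 fold change 0.02, SE 0.34, adjusted p = 0.97). The groups overlapped, and Col-0 had 1, 0 and 2 reads on the entry. Every library titled EAR also held reads on the entry, from 10 in EAR-13-068 A to 228 in EAR-15-053 C. In the other 24 libraries of the series its median was 4.59 CPM, with a range of 0 to 26.6 CPM. Reads on the entry therefore do not single out VP16 plants. Its sequence was not available, so the entry cannot tell which factor a group carries.

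The labelled tissue was checked against marker genes. Of 10 root markers, 2 passed the count filter, and the summed CPM of the list was 56.2 to 61.8 in VP16-02-003 and 59.8 to 80.6 in pool 2. The root hair markers COBL9, EXPA7 and EXPA18 did not pass the filter. Of 6 flower markers 2 passed, with summed CPM of 1.68 to 1.91 in VP16-02-003 and 1.216 to 1.495 in pool 2, and none of 5 seed markers passed, with sums of at most 0.213 CPM in VP16-02-003 and 0.146 CPM in pool 2.

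The clearest single differences were a rise of AT1G20490 and a fall of CYP97B3. AT1G20490, annotated as a member of the AMP-dependent synthetase and ligase family, lies at chr1:7097211-7099892 on the minus strand of TAIR10.1 and had 33.5, 35.3 and 36.2 CPM in VP16-02-003, 3.16, 2.88 and 3.16 CPM in pool 2 and 3.25, 3.71 and 3.63 CPM in Col-0. It rose 11.4-fold (log2 fold change 3.51, SE 0.18, adjusted p = 1.35e-12), and its 3 values lay above all 27 other libraries, which reached 5.98 CPM. CYP97B3, a cytochrome P450 of the family whose better-known members hydroxylate carotenoids, lies at chr4:8629647-8633118 on the minus strand and had 23.2, 22.7 and 28.0 CPM in VP16-02-003, 96.9, 103 and 127 CPM in pool 2 and 143, 146 and 150.3 CPM in Col-0. It fell 4.42-fold (log2 fold change -2.14, SE 0.09, adjusted p = 7.59e-14), to below the 115 to 151 CPM in the other 24 libraries. The 250 bases before the start of both genes hold the letters CACGTG, the core of the G-box bound by light- and clock-linked factors, which is in capitals in the sequences here. It is present in 7.28% of the 250-base windows before 19442 tested genes with a window, searched on both strands, where it reads the same. The windows, from RefSeq's TAIR10.1, are chr1:7099893-7100142 for AT1G20490 and chr4:8633119-8633368 for CYP97B3, both on the minus strand and written 5′ to 3′. The match begins 32 bases before the start of AT1G20490 and 29 before that of CYP97B3. A match describes letters only.
AT1G20490: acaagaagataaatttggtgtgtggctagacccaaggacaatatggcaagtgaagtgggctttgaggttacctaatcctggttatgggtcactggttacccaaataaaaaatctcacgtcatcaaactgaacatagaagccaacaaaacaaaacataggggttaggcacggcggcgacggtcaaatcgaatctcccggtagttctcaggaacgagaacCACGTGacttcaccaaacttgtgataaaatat
CYP97B3: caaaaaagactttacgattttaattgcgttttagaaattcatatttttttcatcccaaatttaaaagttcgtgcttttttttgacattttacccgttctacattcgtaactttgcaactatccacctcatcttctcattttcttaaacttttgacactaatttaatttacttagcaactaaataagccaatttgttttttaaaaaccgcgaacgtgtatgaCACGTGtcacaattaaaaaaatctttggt

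Neighbouring genes were looked at in the order of the reference. Beside AT1G20490, the next gene of the same family, AT1G20480, had 2.52, 2.34 and 2.52 CPM in VP16-02-003 and 1.94, 2.65 and 2.38 CPM in pool 2 and was not called (log2 fold change 0.08, SE 0.15, adjusted p = 0.809), while AT1G20500, a further member of that family, did not pass the filter. On the far side OPCL1, which activates a jasmonate precursor in the peroxisome, had 47.9, 42.2 and 35.4 CPM in VP16-02-003 and 101, 104 and 93.0 CPM in pool 2 and fell (log2 fold change -1.25, SE 0.13, adjusted p = 5.97e-07). AT1G20470, of the SAUR family, had 1.34, 1.06 and 1.07 CPM in VP16-02-003 and 3.05, 2.42 and 1.70 CPM in pool 2 and was called lower (log2 fold change -1.06, SE 0.38, adjusted p = 0.0367), a call lost without VP16-02-003 A, B or C or pool 2 A or B (adjusted p up to 0.127). None of the tested neighbours of AT1G20490 was called higher. Beside CYP97B3, on 1 side, the lipid enzyme CCT2 stood at -0.17 on the log2 scale (adjusted p = 0.329) and AT4G15120 at -0.30 (adjusted p = 0.689), and neither was called. On its other side scpl30 and AT4G15096 did not pass the filter. The sign of AT1G20480 turned without pool 2 A, at -0.04, and that of AT4G15120 without VP16-02-003 A, at 0.06.

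GSTU26, a tau-class glutathione transferase, was the third of the genes with the smallest adjusted p and a difference of at least 4-fold. It lies at chr1:5875295-5876620, had 25.4, 25.6 and 26.4 CPM in VP16-02-003, 5.34, 6.01 and 6.71 CPM in pool 2 and 6.92, 5.88 and 6.57 CPM in Col-0, and rose 4.302-fold (log2 fold change 2.105, SE 0.12, adjusted p = 2.18e-11). The nearest locus on that relatives' side, GSTU25, did not pass the filter. GSTU24, the relative beyond it, had 0.472, 0.992 and 0.764 CPM in VP16-02-003 and 0.555, 0.395 and 0.681 CPM in pool 2 and was not called (log2 fold change 0.50, SE 0.33, adjusted p = 0.256). On the other side AT1G17200 fell by 0.36 on the log2 scale (adjusted p = 0.00385) and ILP1 was not called.

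Other genes rose in VP16-02-003 to above every other library of the series. AT1G35320, an uncharacterized protein gene at chr1:12958841-12962853, had 38.1, 34.4 and 37.7 CPM in VP16-02-003 and 7.84, 7.78 and 7.34 CPM in pool 2 (log2 fold change 2.26, SE 0.15, adjusted p = 6.58e-10), beside 3.85 to 8.24 CPM in the other 24 libraries. AT1G59660, annotated as a nucleoporin autopeptidase, at chr1:21923986-21929437, had 29.8, 29.1 and 27.5 CPM in VP16-02-003 and 6.94, 7.87 and 6.32 CPM in pool 2 (log2 fold change 2.03, SE 0.16, adjusted p = 8.38e-09). YAB3, a YABBY transcription factor that helps set the lower side of the leaf, at chr4:72545-75576, had 53.1, 58.3 and 54.9 CPM in VP16-02-003 and 27.3, 28.0 and 29.9 CPM in pool 2 (log2 fold change 0.96, SE 0.07, adjusted p = 6.58e-10). In the other 24 libraries of the series YAB3 kept to 27.0 to 34.3 CPM, so the VP16-02-003 level stood clear of a narrow range. AT1G21080, a DNAJ-domain protein gene, had 81.1, 81.9 and 70.5 CPM in VP16-02-003 and 35.7, 36.6 and 31.7 CPM in pool 2 (log2 fold change 1.17, SE 0.08, adjusted p = 8.4e-10). AT4G16960, of the TIR-NBS-LRR disease-resistance class, had 70.1, 74.3 and 74.3 CPM in VP16-02-003 and 20.7, 18.5 and 9.39 CPM in pool 2 (log2 fold change 2.16, SE 0.19, adjusted p = 5.22e-08). GAD, a glutamate decarboxylase, which makes GABA, had 6.14, 6.95 and 4.58 CPM in VP16-02-003 and 1.28, 1.64 and 1.07 CPM in pool 2 (log2 fold change 2.12, SE 0.21, adjusted p = 4.23e-07). All 3 VP16-02-003 values of each of these genes exceeded all 27 other libraries of the series. Over all genes, 623 of those tested (3.18%) had their 3 VP16-02-003 values above every other library and 690 (3.53%) below.

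Falls of the same kind included a photosynthetic enzyme. FNR2, a leaf ferredoxin-NADP oxidoreductase, an enzyme that passes electrons from photosystem I to NADPH, had 895, 819 and 934 CPM in VP16-02-003 and 1616, 1712 and 1851 CPM in pool 2 (log2 fold change -0.97, SE 0.09, adjusted p = 5.32e-08). Its level in the other 24 libraries was 1054 to 1836 CPM, above all 3 VP16-02-003 values. AT2G43535, a knottin-type defence peptide gene, had 4.49, 5.24 and 6.80 CPM in VP16-02-003 and 19.1, 18.6 and 22.5 CPM in pool 2 (log2 fold change -1.86, SE 0.15, adjusted p = 2.24e-08). AT1G78820, a mannose-binding lectin gene, had 18.4, 18.3 and 15.3 CPM in VP16-02-003 and 46.9, 58.1 and 55.4 CPM in pool 2 (log2 fold change -1.62, SE 0.17, adjusted p = 6.12e-07). AT1G27030, an uncharacterized protein gene, had 12.5, 11.3 and 10.2 CPM in VP16-02-003 and 36.5, 34.8 and 34.2 CPM in pool 2 (log2 fold change -1.63, SE 0.16, adjusted p = 4.2e-07). In each of these 4 genes the VP16-02-003 values lay below every other library of the series. The low-level gene AT3G21020 had 0.236, 0.283 and 0.0764 CPM in VP16-02-003 and 1.46, 1.35 and 1.36 CPM in pool 2 (log2 fold change -2.76, SE 0.33, adjusted p = 4.05e-06).

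Among the largest fold changes, several genes started from a low level in pool 2. ABCG27, an ABC transporter, had 12.2, 6.66 and 7.49 CPM in VP16-02-003 and 0.625, 0.846 and 0.924 CPM in pool 2 (log2 fold change 3.46, SE 0.52, adjusted p = 7.29e-05), and AT3G11402, of the C1-domain family, had 11.8, 11.6 and 7.41 CPM in VP16-02-003 and 1.87, 1.19 and 1.26 CPM in pool 2 (log2 fold change 2.83, SE 0.32, adjusted p = 2.28e-06). Both stood above all other libraries in VP16-02-003. AT1G50040, annotated as a putative formin-like protein, had 12.6, 11.3 and 14.1 CPM in VP16-02-003 and 1.60, 1.80 and 3.31 CPM in pool 2 (log2 fold change 2.55, SE 0.49, adjusted p = 0.000629). Col-0 had 8.87, 14.96 and 9.51 CPM, and the log2 fold change of VP16-02-003 over Col-0 was 0.23. Pool 2 was not called against Col-0, and the other 24 libraries ranged from 1.83 to 21.3 CPM. ORP1A, an oxysterol-binding-protein relative, had 8.42, 9.07 and 9.17 CPM in VP16-02-003 and 2.33, 1.83 and 1.75 CPM in pool 2 (log2 fold change 2.17, SE 0.42, adjusted p = 0.000807). At the lower end TBL26, of a family that acetylates cell wall polysaccharides, had 4.01, 2.197 and 2.44 CPM in VP16-02-003 and 28.7, 18.9 and 17.9 CPM in pool 2 (log2 fold change -2.93, SE 0.88, adjusted p = 0.0154), a call lost without VP16-02-003 B or C (adjusted p up to 0.0628).

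**Figure D1:**
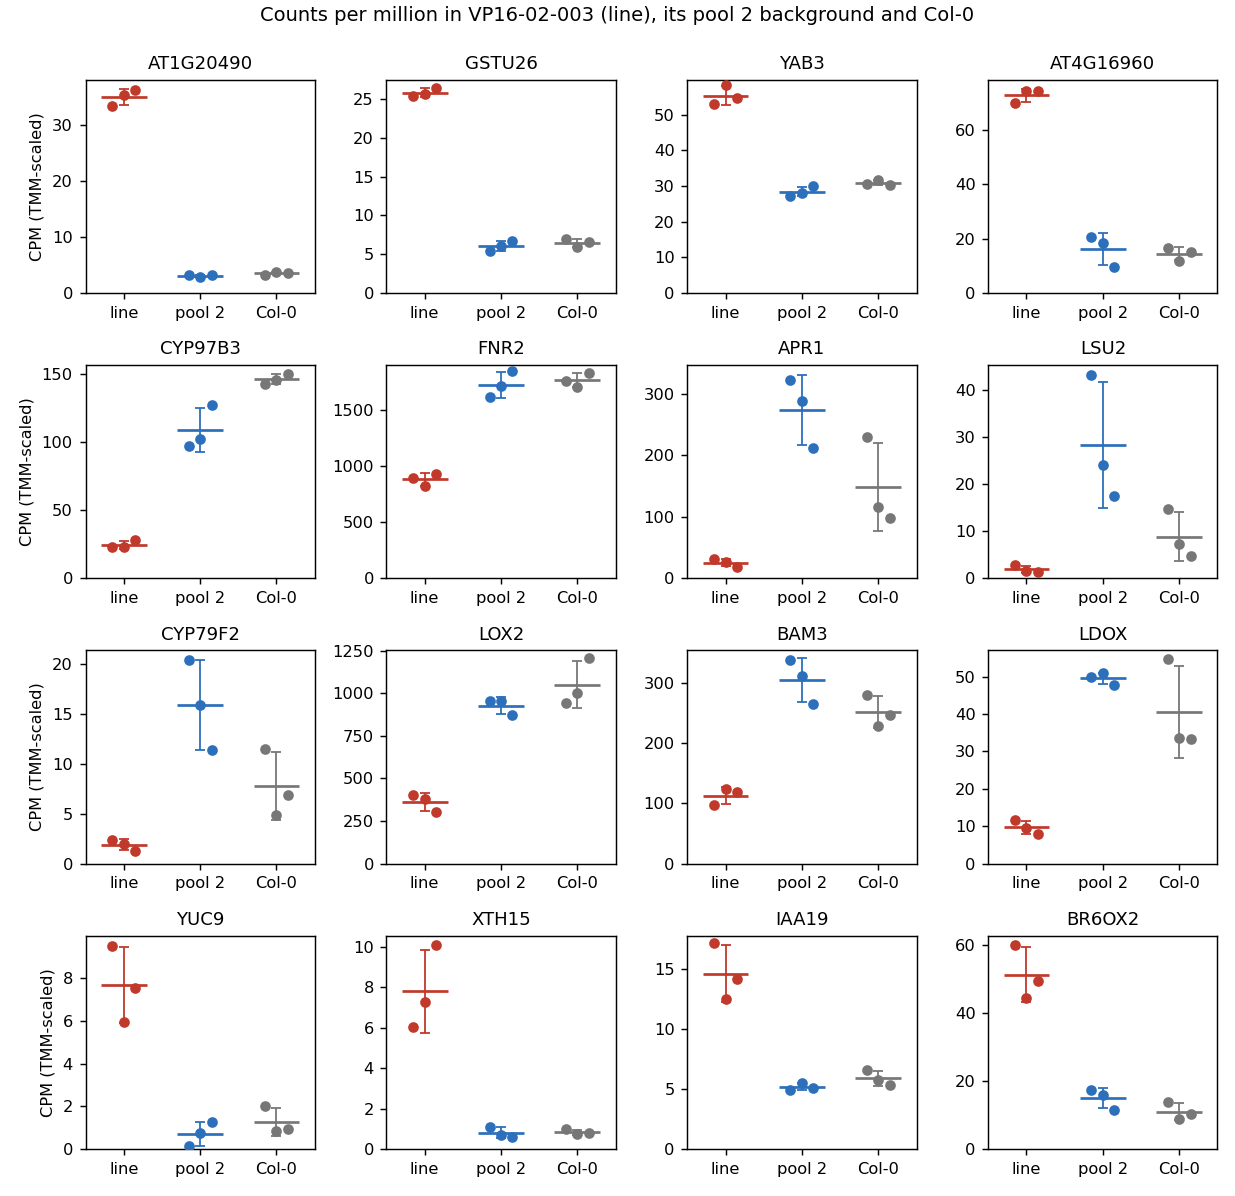
CPM values (TMM-scaled, each axis from 0) of named genes in VP16-02-003 (line), the VP16 pool 2 background and Col-0, with 3 points for the libraries, a bar for their mean and whiskers for the SD. AT1G20490 and GSTU26 stood well above both controls and CYP97B3 well below them. In APR1 and LSU2 the pool 2 mean was above that of Col-0, a difference that was not called in either gene.

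Between pool 2 and Col-0, 3 entries were called (0.0153% of those tested; 2173 at an unadjusted p under 0.05), namely VP16, AT5G03380 and AT3G01345. Both genes were singled out after their values were seen. AT5G03380, annotated as a heavy metal transport and detoxification protein, had 25.7, 21.5 and 23.8 CPM in VP16-02-003 and 51.3, 52.6 and 42.1 CPM in pool 2 (log2 fold change -1.04, SE 0.15, adjusted p = 6.24e-05), and VP16-02-003 lay within the 20.1 to 46.2 CPM of the other 24 libraries. AT3G01345, an uncharacterized protein gene, had 238, 252 and 247 CPM in VP16-02-003 and 118, 81.4 and 33.0 CPM in pool 2 (log2 fold change 1.66, SE 0.27, adjusted p = 0.000137). Every library outside VP16-02-003 and pool 2 had at most 0.947 CPM of it, and within pool 2 the 3 values spread widely, with C lowest.

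The other VP16 line of the series, VP16-05-014, was compared with its own pool, VP16 pool 5, and the difference between the effects of the lines was tested as a contrast of the 12 libraries, none of which the lines share. Of 19566 genes, 359 (1.83%) differed, 161 (0.823%) with a higher and 198 (1.01%) with a lower effect in VP16-02-003. VP16-05-014 itself called 293 genes (1.5%) against its pool, 124 (0.634%) higher and 169 (0.864%) lower. Counts of list members in these contrasts can be read against these shares. VP16-05-014 C stood apart from A and B, and without it the difference was called in 251 genes. The number was 207 and 153 without VP16-02-003 B or C, 203 without pool 2 B, 190 and 157 without pool 5 B or C, and 683 without VP16-05-014 B. It was 81 with the libraries of the contrast alone and 37 with the replicate letter as a block.

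AT1G20490 had an effect of 3.51 in VP16-02-003 and 0.61 in VP16-05-014 on the log2 scale, a difference of 2.90 (SE 0.26, adjusted p = 2.14e-07). The difference was 2.14 (SE 0.18, adjusted p = 9.55e-08) for GSTU26 and 2.65 (SE 0.23, adjusted p = 2.14e-07) for AT1G35320, whose effects in VP16-05-014 were -0.04 and -0.39. YAB3 differed by 1.06 (SE 0.09, adjusted p = 2.14e-07) and AT1G59660 by 2.56 (SE 0.24, adjusted p = 3.68e-07). AT1G21080 differed by 0.99 (SE 0.12, adjusted p = 2.07e-05). CYP97B3 had an effect of -0.06 in VP16-05-014 and differed by -2.08 (SE 0.12, adjusted p = 1.64e-10), the smallest adjusted p of that contrast. AT5G05060, of the cystatin superfamily, fell by 0.78 in VP16-02-003 and had an effect of 0.26 in VP16-05-014, while AT4G13575, uncharacterized, fell by 0.78 and had 0.30. Among genes of the lists, XTH15 differed by 3.65 (SE 0.46, adjusted p = 5.08e-05) and FUL, a flowering and fruit regulator, by 2.19 (SE 0.53, adjusted p = 0.0308).

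**Figure D2:**
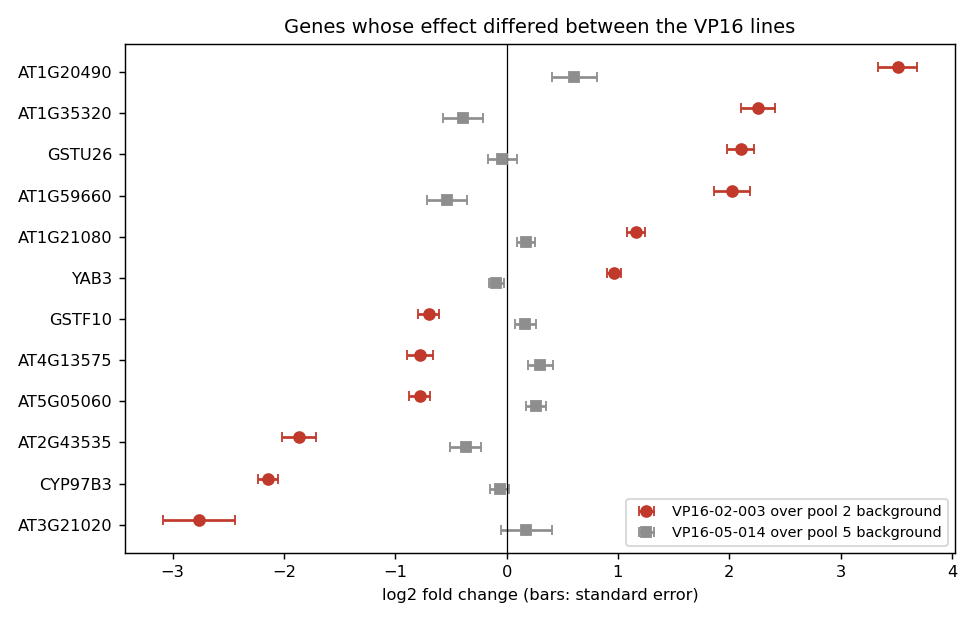
Log2 fold changes with standard errors of the genes with the smallest adjusted p for a difference between the lines, in VP16-02-003 over pool 2 (red circles) and in VP16-05-014 over pool 5 (grey squares). The grey squares lie near 0 for GSTU26, YAB3 and CYP97B3, whose red circles lie at 2.105, 0.96 and -2.14.

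Genes of sulfate assimilation fell at each enzymatic step from the activation of sulfate to cysteine. Of 26 genes on the list 25 passed the count filter, and 14 were called lower and 2 higher, beside 13.8% and 15.3% of all genes tested. The list median was -0.33 against pool 2 and -0.32 against Col-0. In VP16-05-014 over its own pool it was 0.0029, and the effect differed between the lines in 0 members. Sulfate is first activated by ATP sulfurylase. APS3, an isoform of that enzyme, had 23.61, 22.1 and 20.5 CPM in VP16-02-003 and 72.9, 84.2 and 72.6 CPM in pool 2 (log2 fold change -1.79, SE 0.24, adjusted p = 1.68e-05), and its relatives APS1 and APS2 changed by -0.33 and -0.67 while APS4, at -0.06, was not called. APS reductase, the controlled step, is encoded by APR1 to APR3. APR1 had 30.9, 26.4 and 18.7 CPM in VP16-02-003 and 323, 288 and 211 CPM in pool 2 (log2 fold change -3.44, SE 0.58, adjusted p = 0.000237). APR2 had 60.4, 47.5 and 38.7 CPM in VP16-02-003 and 342, 284 and 194 CPM in pool 2 (log2 fold change -2.48, SE 0.51, adjusted p = 0.00125). The change of APR3 was -3.57. Pool 2 C was the lowest pool 2 library and VP16-02-003 C the lowest library of the line in all 3 APR genes, so the spread was wide in both groups.

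APS kinases divert activated sulfate to the donor used in glucosinolate synthesis. APK1 had 52.3, 38.3 and 33.9 CPM in VP16-02-003 and 175, 157 and 151 CPM in pool 2 (log2 fold change -1.96, SE 0.32, adjusted p = 0.00017). APK2 had 37.4, 30.5 and 23.1 CPM in VP16-02-003 and 166, 149 and 135 CPM in pool 2 (log2 fold change -2.30, SE 0.38, adjusted p = 0.000186). Together with APS3 these were the list members with the smallest adjusted p. No value of the line reached one of pool 2, and 44.9% of all genes tested had groups apart. Further down, SIR, the sulfite reductase, had 322, 292 and 313 CPM in VP16-02-003 and 456, 481 and 429 CPM in pool 2 (log2 fold change -0.56, SE 0.10, adjusted p = 0.000545). The cysteine synthases OASC and OASA1 changed by -0.49 and -0.24, the serine acetyltransferases SERAT2;1 and SERAT2;2 by -0.90 and -0.59, and GSH1, the first enzyme of glutathione synthesis, by -0.37. Higher were the APS kinase isoform APK4, with 3.96 ± 0.632 CPM in VP16-02-003 and 2.15 ± 0.155 CPM in pool 2 (SD, n = 3 each), and the glutathione synthetase GSH2, at 0.35, and the number higher was 1 without VP16-02-003 C or pool 2 B. The sulfate transporters SULTR1;2, SULTR2;1, SULTR2;2, SULTR4;1 and SULTR4;2 ranged from -0.14 to 0.20 and none was called.

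The markers that plants raise when sulfur is short stood far lower in VP16-02-003. All 10 listed genes passed the filter, and 7 were called lower and 0 higher, beside 13.8% and 15.3% of all genes. The list median was -2.57 against pool 2 and -1.82 against Col-0, and pool 2 over Col-0 was at 1.02. SHM7, a serine hydroxymethyltransferase, had 28.1, 35.6 and 33.5 CPM in VP16-02-003 and 173, 168 and 115 CPM in pool 2 (log2 fold change -2.23, SE 0.47, adjusted p = 0.00137). LSU1, of the low-sulfur-upregulated family, had 1.81, 3.19 and 1.76 CPM in VP16-02-003 and 22.3, 16.3 and 12.2 CPM in pool 2 (log2 fold change -2.90, SE 0.74, adjusted p = 0.00587), and its relatives LSU2 and LSU3 changed by -3.91 and -4.17. AT1G04770 had 4.17, 4.82 and 4.58 CPM in VP16-02-003 and 67.7, 40.0 and 30.2 CPM in pool 2 (log2 fold change -3.34, SE 0.65, adjusted p = 0.000719). GGCT2;1, a cyclotransferase that breaks down glutathione, changed by -1.57 (adjusted p = 0.0162). ATSDI1, which restrains glucosinolate synthesis under low sulfur, had 3.32 ± 0.749 CPM in VP16-02-003 and 31.7 ± 10.8 CPM in pool 2 (SD, n = 3 each). In these 7 genes, picked because they were called, no library of the line overlapped pool 2, as in 44.9% of all genes tested. BGLU28, a glucosidase linked to glucosinolate breakdown, was at -1.92 and was not called, and EIL3, the regulator of this response, had 15.2, 15.9 and 14.97 CPM in VP16-02-003 and 18.18, 17.2 and 14.7 CPM in pool 2 (log2 fold change -0.12, SE 0.10, adjusted p = 0.384). Against Col-0, 3 members were called lower in VP16-02-003 and 1 higher, beside 10.8% and 12.3% of all genes. In VP16-05-014 over its own pool the list median was -1.52, with 1 member called lower. The effect differed between the lines in 0 members.

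Transcripts for the synthesis of aliphatic glucosinolates, which start from methionine, were lower at almost every step. Of 25 listed genes 24 were tested, 23 were called lower, 0 higher, and in all 24 the 3 values of VP16-02-003 lay below the 3 of pool 2, beside 44.9% of all genes with groups apart. The list median was -1.75 against pool 2 and -1.24 against Col-0, with a range of -3.08 to -0.58 against pool 2. Against Col-0, 22 were called lower and 0 higher, beside 10.8% and 12.3% of all genes. The member that was not called was the regulator MYB29, with 25.9, 17.2 and 18.6 CPM in VP16-02-003 and 52.1, 41.7 and 30.5 CPM in pool 2 (log2 fold change -1.01, SE 0.43, adjusted p = 0.0772). MYB28, the main regulator, had 36.8, 26.1 and 27.6 CPM in VP16-02-003 and 68.4, 52.8 and 44.9 CPM in pool 2 (log2 fold change -0.88, SE 0.30, adjusted p = 0.0328), and MYB76, a further regulator, had 0.378 ± 0.162 CPM in VP16-02-003 and 2.39 ± 0.560 CPM in pool 2 (SD, n = 3 each). The effects differed from those of VP16-05-014 in 7 members, all lower in VP16-02-003, beside 1.01% of all genes with a lower effect.

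Chain elongation lengthens methionine before the core structure is made. BCAT4, the aminotransferase that opens it, had 60.6, 48.3 and 39.9 CPM in VP16-02-003 and 239, 211 and 181 CPM in pool 2 (log2 fold change -2.09, SE 0.33, adjusted p = 0.000138). IPMI2, an isomerase subunit, had 50.4, 39.0 and 36.5 CPM in VP16-02-003 and 110.4, 113 and 108 CPM in pool 2 (log2 fold change -1.40, SE 0.21, adjusted p = 7.16e-05), and -2.33 was the value of its relative IPMI1. IMD1, a dehydrogenase, had 157, 108 and 121 CPM in VP16-02-003 and 359.6, 337 and 316 CPM in pool 2 (log2 fold change -1.39, SE 0.21, adjusted p = 9.07e-05). MAM1, a condensing enzyme, had 214, 174 and 170.0 CPM in VP16-02-003 and 439, 435 and 388 CPM in pool 2 (log2 fold change -1.18, SE 0.19, adjusted p = 0.000152), and MAM3 changed by -1.82. BAT5, the carrier that moves the intermediates into the plastid, changed by -2.04 (adjusted p = 0.000228). In the core pathway CYP79F1 and CYP79F2 make the aldoximes, and CYP79F1 had 72.2, 52.8 and 41.9 CPM in VP16-02-003 and 359, 316 and 222 CPM in pool 2 (log2 fold change -2.43, SE 0.43, adjusted p = 0.000326). GGP1, the peptidase that processes the glutathione adduct, had 112, 97.7 and 82.7 CPM in VP16-02-003 and 249.6, 239 and 248 CPM in pool 2 (log2 fold change -1.33, SE 0.17, adjusted p = 9.6e-06), which was the smallest adjusted p of the list. The later core enzymes CYP83A1, SUR1 and the sulfotransferases SOT17 and SOT18 changed by -1.56, -1.18, -2.42 and -2.13. The side-chain oxygenases FMO GS-OX1 and FMO GS-OX3 changed by -2.37 and -2.48. The smallest change was in IIL1, at -0.58, the large isomerase subunit that leucine synthesis also uses.

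**Figure D3:**
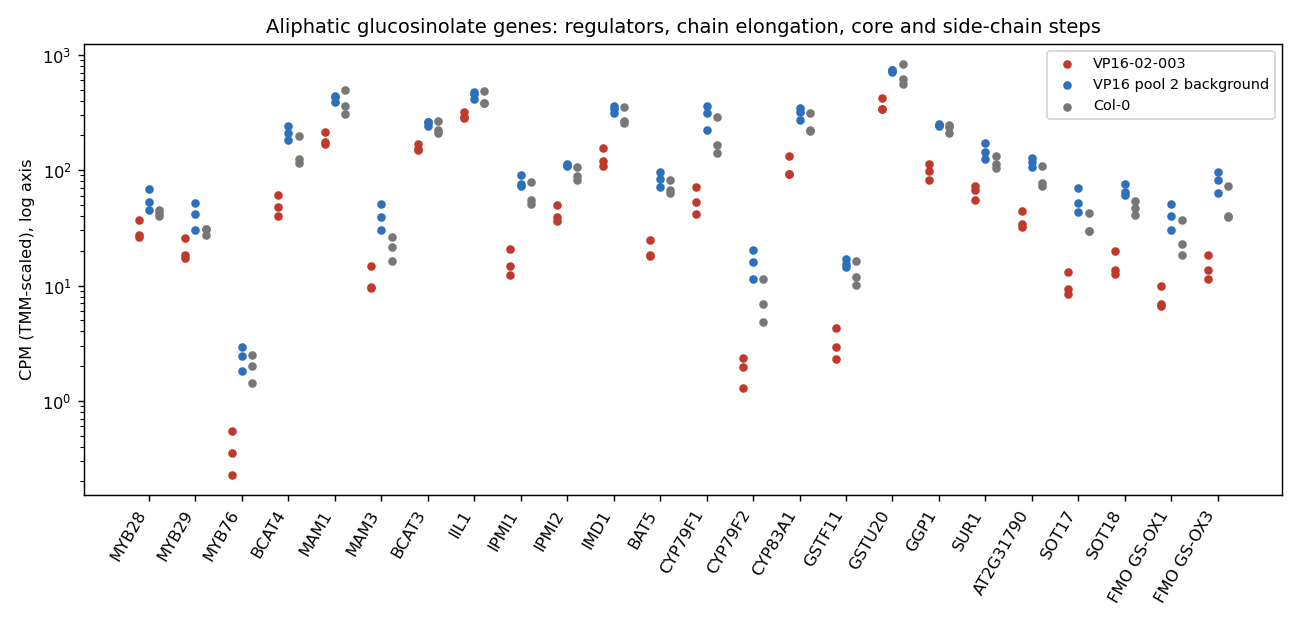
CPM values (TMM-scaled, log axis) of the aliphatic glucosinolate genes in the 3 libraries each of VP16-02-003, the VP16 pool 2 background and Col-0. In every gene the 3 VP16-02-003 points lie below the 3 points of pool 2.

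Indole glucosinolates, made from tryptophan, were lower in most of their enzymes, while the regulators tested were not called. Of 13 genes 11 were tested, 8 were called lower and 0 higher, beside 13.8% and 15.3% of all genes. The median was -1.25 against pool 2 and -1.05 against Col-0. CYP79B3, which converts tryptophan to its aldoxime, had 18.4, 16.2 and 16.9 CPM in VP16-02-003 and 60.6, 62.1 and 72.6 CPM in pool 2 (log2 fold change -1.92, SE 0.31, adjusted p = 0.000155). GSTF9, a glutathione transferase of the core pathway, had 436, 386 and 337 CPM in VP16-02-003 and 898, 871 and 1010.0 CPM in pool 2 (log2 fold change -1.26, SE 0.16, adjusted p = 1.43e-05). GSTF10, a close relative, had 172, 151 and 149.6 CPM in VP16-02-003 and 256, 239.8 and 271 CPM in pool 2 (log2 fold change -0.70, SE 0.09, adjusted p = 1.86e-05), and its effect differed from that of VP16-05-014 by -0.87 (SE 0.13, adjusted p = 0.000567). UGT74B1, the core glucosyltransferase, had 27.0, 24.9 and 20.2 CPM in VP16-02-003 and 97.5, 86.1 and 70.1 CPM in pool 2 (log2 fold change -1.82, SE 0.35, adjusted p = 0.000639). In these 4 genes, picked for small adjusted p, no library of the line overlapped pool 2, as in 44.9% of all genes tested. CYP83B1, SOT16 and CYP81F2, which modifies the indole ring, changed by -1.003, -1.25 and -2.09. The regulators MYB34 and MYB51 stood at 0.01 and -0.63 and were not called.

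Flavonoid and anthocyanin genes, which lead to flavonols and the red pigments, were lower in many of their steps. Of 26 genes 24 were tested, 15 were called lower and 0 higher, beside 13.8% and 15.3% of all genes. The median was -1.63 against pool 2 and -1.09 against Col-0. PAL2, which feeds phenylalanine into the pathway, had 54.5, 57.3 and 54.6 CPM in VP16-02-003 and 99.9, 108 and 96.4 CPM in pool 2 (log2 fold change -0.87, SE 0.14, adjusted p = 0.000163). The first flavonoid enzyme, TT4, had 88.2, 88.5 and 73.7 CPM in VP16-02-003 and 97.0, 97.3 and 93.3 CPM in pool 2 and was not called (log2 fold change -0.20, SE 0.24, adjusted p = 0.559). DFR, the first enzyme that leads only to anthocyanins and tannins, had 19.2, 17.3 and 11.2 CPM in VP16-02-003 and 51.4, 49.8 and 47.8 CPM in pool 2 (log2 fold change -1.64, SE 0.28, adjusted p = 0.000228). LDOX, the next enzyme, had 11.6, 9.496 and 7.94 CPM in VP16-02-003 and 49.9, 50.8 and 47.8 CPM in pool 2 (log2 fold change -2.36, SE 0.37, adjusted p = 0.000132). TT19, a glutathione transferase needed to carry the pigment to the vacuole, had 6.53, 5.24 and 4.05 CPM in VP16-02-003 and 28.2, 26.3 and 30.4 CPM in pool 2 (log2 fold change -2.42, SE 0.41, adjusted p = 0.000228). In DFR, LDOX and TT19, picked for small adjusted p, the groups did not overlap, as in 44.9% of all genes tested. Pigment-decorating enzymes UF3GT and AT5MAT changed by -3.14 and -2.33, and FLS1, which makes flavonols, by -1.69. Of the regulators, PAP1, an activator of anthocyanin genes, had 1.57, 0.425 and 0.611 CPM in VP16-02-003 and 10.7, 6.88 and 5.98 CPM in pool 2 (log2 fold change -3.20, SE 0.98, adjusted p = 0.0175), a call lost without VP16-02-003 B or C (adjusted p up to 0.0753). TT8, its partner, changed by -2.19, MYBL2, a repressor, also fell, by 1.32, and TTG1 at 0.16 was not called. The effect differed from that of VP16-05-014 in 6 members, beside 1.83% of all genes, among them LDOX by -2.53 (SE 0.50, adjusted p = 0.00798).

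Jasmonate, the wound and defence hormone, is made from plastid lipids. Of 29 genes of its synthesis and response, 14 were called lower and 1 higher, beside 13.8% and 15.3% of all genes. The median was -0.82 against pool 2 and -1.25 against Col-0. LOX2, the leaf lipoxygenase that begins synthesis, had 404, 382 and 304 CPM in VP16-02-003 and 954, 956 and 869.9 CPM in pool 2 (log2 fold change -1.35, SE 0.21, adjusted p = 0.000126). LOX4, another lipoxygenase, had 9.84, 10.06 and 7.41 CPM in VP16-02-003 and 33.2, 44.8 and 37.3 CPM in pool 2 (log2 fold change -2.08, SE 0.28, adjusted p = 2.19e-05). AOS, allene oxide synthase, had 226, 174 and 184 CPM in VP16-02-003 and 362, 384 and 415 CPM in pool 2 (log2 fold change -0.99, SE 0.16, adjusted p = 0.000144). The following steps AOC2, OPR3 and the methyltransferase JMT changed by -0.95, -0.82 and -1.13, so transcripts of several successive steps were lower. JAZ9, a repressor that jasmonate induces, had 40.1, 48.8 and 48.9 CPM in VP16-02-003 and 138, 136 and 146 CPM in pool 2 (log2 fold change -1.61, SE 0.19, adjusted p = 3.96e-06). MYC2, the main activator of the response, had 17.9, 14.2 and 14.5 CPM in VP16-02-003 and 46.6, 46.6 and 49.5 CPM in pool 2 (log2 fold change -1.62, SE 0.26, adjusted p = 0.000154). The vegetative storage proteins, classic readouts of the hormone, were lower too, with 16.1, 9.99 and 6.65 CPM in VP16-02-003 and 59.2, 55.2 and 90.7 CPM in pool 2 for VSP2 (log2 fold change -2.65, SE 0.49, adjusted p = 0.000524). JAZ1 and JAZ5 changed by -1.03 and -1.54, and JAZ2, JAZ3, JAZ6, JAZ7, JAZ8, JAZ10 and JAZ12 were not called. The receptor COI1, at 0.09, and the conjugating enzyme JAR1, at -0.05, were not called either. CYP94C1, which oxidises the active hormone, was called higher at 0.997, and no member was called higher without VP16-02-003 B or C, or pool 2 A or B. Against Col-0, 22 members were called lower and 1 higher, beside 10.8% and 12.3% of all genes. Against the effect of VP16-05-014 5 differed, all lower in VP16-02-003, beside 1.01% of all genes with a lower effect.

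Genes that respond within minutes to wounding, cold or touch, most of them transcription factors, stood lower in VP16-02-003 than in pool 2. Of 31 such genes 30 were tested, 18 were called lower and 0 higher, beside 13.8% and 15.3% of all genes. The median was -1.15 against pool 2 and -0.56 against Col-0. Pool 2 over Col-0 had a median of 0.84. Against Col-0, 8 were called lower in VP16-02-003 and 2 higher, beside 10.8% and 12.3% of all genes, so the count depended on the control. ZAT11, a zinc-finger factor, had 0.630, 0.142 and 0.611 CPM in VP16-02-003 and 6.42, 7.64 and 3.84 CPM in pool 2 (log2 fold change -3.72, SE 0.58, adjusted p = 0.000105). ERF1A, an ethylene-response factor, had 3.46, 5.60 and 3.67 CPM in VP16-02-003 and 12.7, 11.7 and 10.3 CPM in pool 2 (log2 fold change -1.44, SE 0.23, adjusted p = 0.000131). ERF6, a relative, had 4.49, 6.24 and 5.50 CPM in VP16-02-003 and 25.02, 25.2 and 23.9 CPM in pool 2 (log2 fold change -2.19, SE 0.35, adjusted p = 0.000148). ORA47, an activator of jasmonate genes, had 0.944, 1.35 and 2.21 CPM in VP16-02-003 and 15.3, 9.14 and 7.29 CPM in pool 2 (log2 fold change -2.82, SE 0.51, adjusted p = 0.000413). In these 4, picked for small adjusted p, the groups did not overlap, as in 44.9% of all genes tested. WRKY33, a regulator of defence against fungi, had 52.8, 47.2 and 46.2 CPM in VP16-02-003 and 224, 216 and 131 CPM in pool 2 beside 109, 45.6 and 37.5 CPM in Col-0, and WRKY40 and WRKY53 changed by -1.60 and -1.30. The cold factors CBF1, CBF2 and CBF3 stood at -0.99, -0.14 and -0.92 and were not called. In VP16-05-014 over its pool 7 members were called lower, beside 0.864% of all genes, and the effect differed between the lines in 0 members.

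Starch genes were lower on both the building and the degrading side. Of 27 genes, all tested, 18 were called lower and 1 higher, beside 13.8% and 15.3% of all genes. The median was -0.46 against pool 2 and -0.36 against Col-0. At night starch is first phosphorylated. SEX1, the glucan water dikinase that does so, had 346, 313 and 334 CPM in VP16-02-003 and 752, 725 and 505 CPM in pool 2 (log2 fold change -0.997, SE 0.18, adjusted p = 0.000413). PWD, the kinase that follows it, had 108, 112 and 122 CPM in VP16-02-003 and 217, 219 and 176 CPM in pool 2 (log2 fold change -0.84, SE 0.15, adjusted p = 0.000336). LSF1, a phosphatase-like protein of starch breakdown, had 25.3, 24.6 and 27.2 CPM in VP16-02-003 and 42.1, 41.7 and 37.7 CPM in pool 2 (log2 fold change -0.66, SE 0.11, adjusted p = 0.000231). BAM3, the main beta-amylase, had 96.4, 123 and 119 CPM in VP16-02-003 and 338, 311 and 265 CPM in pool 2 (log2 fold change -1.43, SE 0.22, adjusted p = 9.07e-05), and its effect differed from that in VP16-05-014 by -1.26 (SE 0.30, adjusted p = 0.0302). In these genes, picked for small adjusted p, no library of the line overlapped pool 2, as in 44.9% of all genes tested. Maltose handling fell as well, with DPE2 at -0.56, PHS2 at -1.23 and the exporter MEX1 at -0.25. On the building side the ADP-glucose pyrophosphorylase subunit APL1 changed by -0.30, the synthases SS1, SS2 and SS4 by -0.37, -0.42 and -0.52, and the branching enzymes SBE2.1 and SBE2.2 by -0.60 and -0.31. GBSS1, the amylose synthase, had 93.7, 92.0 and 77.7 CPM in VP16-02-003 and 82.7, 64.9 and 45.1 CPM in pool 2 and was not called (log2 fold change 0.45, SE 0.27, adjusted p = 0.222). BAM4, a regulator of breakdown, was called higher at 0.56, and without VP16-02-003 B no member was called higher.

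Genes that sugar shortage induces gave no firm result. Of 19 listed genes 15 were tested, 2 were called higher and 0 lower, beside 15.3% and 13.8% of all genes, with a median of 0.53 against pool 2 and -0.09 against Col-0. STP1, a sugar importer, had 165, 244 and 260.4 CPM in VP16-02-003 and 46.7, 67.1 and 95.5 CPM in pool 2 (log2 fold change 1.68, SE 0.52, adjusted p = 0.0194), and TPS10, of the trehalose-phosphate synthase family, had 75.4, 97.9 and 107 CPM in VP16-02-003 and 27.8, 36.7 and 45.8 CPM in pool 2 (log2 fold change 1.35, SE 0.47, adjusted p = 0.0336). Both lay nearer to Col-0, at 126, 161 and 200.2 CPM for STP1 and 66.7, 70.2 and 84.3 CPM for TPS10. The call of each was lost without VP16-02-003 B or C or pool 2 A or B, with adjusted p of up to 0.0773 for STP1 and 0.110 for TPS10.

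Genes of the circadian clock were called in both directions. Of 12 morning genes 3 were called higher and 2 lower, beside 15.3% and 13.8% of all genes, with a median of -0.21 against pool 2. Of 12 afternoon and evening genes 2 were called higher and 4 lower, with medians of -0.37 against pool 2 and -0.87 against Col-0. The time of harvest is not given in the sources used here. LHY, a repressor that peaks at dawn, had 10.2, 12.8 and 9.24 CPM in VP16-02-003 and 5.07, 3.67 and 2.77 CPM in pool 2 (log2 fold change 1.47, SE 0.27, adjusted p = 0.000444). LNK2, a coactivator that acts in the morning, had 200.3, 181 and 199.7 CPM in VP16-02-003 and 134, 141 and 126 CPM in pool 2 (log2 fold change 0.54, SE 0.13, adjusted p = 0.00419). RVE4, a morning activator, had 56.6, 61.4 and 72.9 CPM in VP16-02-003 and 42.0, 44.0 and 47.8 CPM in pool 2 (log2 fold change 0.51, SE 0.14, adjusted p = 0.0102), a call lost without VP16-02-003 C (adjusted p up to 0.0686). LHY, LNK2 and RVE4, picked for small adjusted p, were higher in every library of the line than in any of pool 2. The groups were apart in 44.9% of all genes tested. CCA1, the partner of LHY, had 33.7, 36.7 and 33.5 CPM in VP16-02-003 and 32.6, 34.5 and 26.7 CPM in pool 2 and was not called (log2 fold change 0.14, SE 0.24, adjusted p = 0.684). LNK1 had 43.8, 40.0 and 35.1 CPM in VP16-02-003 and 84.1, 76.7 and 62.7 CPM in pool 2 (log2 fold change -0.91, SE 0.28, adjusted p = 0.0197), lost without VP16-02-003 B or C or pool 2 A (adjusted p up to 0.0763). PRR7, a daytime repressor, had 184, 177 and 195 CPM in VP16-02-003 and 223, 227 and 189.8 CPM in pool 2 (log2 fold change -0.20, SE 0.07, adjusted p = 0.0252), with overlapping groups. No morning member was called lower without VP16-02-003 B or pool 2 A, and 1 without pool 2 B.

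The evening genes that fell include parts of the light input to the clock. GI, or GIGANTEA, which links the clock to flowering, had 55.8, 47.7 and 40.9 CPM in VP16-02-003 and 109, 98.7 and 72.8 CPM in pool 2 (log2 fold change -0.96, SE 0.24, adjusted p = 0.00522). FKF1, a blue-light receptor that works with GI, had 1.97, 4.68 and 6.11 CPM in VP16-02-003 and 11.1, 9.81 and 12.9 CPM in pool 2 (log2 fold change -1.40, SE 0.38, adjusted p = 0.00933), a call lost without VP16-02-003 A (adjusted p up to 0.056). ELF4, of the evening complex, had 1.02, 0.567 and 0.993 CPM in VP16-02-003 and 3.37, 2.74 and 4.18 CPM in pool 2 (log2 fold change -1.98, SE 0.42, adjusted p = 0.0014). PRR3, an evening pseudo-response regulator, had 3.23, 3.76 and 4.66 CPM in VP16-02-003 and 10.2, 9.62 and 10.8 CPM in pool 2 (log2 fold change -1.39, SE 0.32, adjusted p = 0.00253). In these 4 genes, picked because they were called, all VP16-02-003 values lay below all pool 2 values. In 44.9% of all genes tested the groups did not overlap. Col-0 had 113, 87.0 and 119 CPM of GI, overlapping pool 2, and 20.6, 20.3 and 25.9 CPM of FKF1. LUX, ELF3 and TOC1, also evening genes, stood at 0.17, 0.19 and 0.17 and were not called. LKP2 and CHE were called higher, at 0.33 and 0.29, and with any 1 library left out at most 1 evening gene was called higher. Against Col-0, 7 evening genes were called lower and 0 higher, beside 10.8% and 12.3% of all genes.

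The windows before the starts of 3 clock genes are shown because they hold letters that clock and light factors are known to bind. The evening element AAAATATCT, bound by LHY and its relatives and searched on both strands, is present in 5 of 12 evening windows (41.7%), 1 of 12 morning windows (8.33%) and 2.57% of 19442 windows. Of the evening genes called lower, FKF1 alone has it in its window, and the other evening windows with it belong to genes not called lower. CACGTG is present in 6 of 12 morning windows (50%), 2 of 12 evening windows (16.7%) and 7.28% of all. Of the morning genes called in either direction, LHY and PRR7 alone have it. A link between these letters and the calls was not tested. GAGAC, the core of an element known from sulfur-responsive promoters, was searched likewise and is present in 1 of 25 windows of sulfate assimilation (4%), 5 of 10 of the low-sulfur genes (50%) and 25.3% of all. None of the windows printed overlaps another gene. The windows are chr1:37872-38121 on the minus strand for LHY, chr5:642031-642280 on the minus strand for PRR7 and chr1:25508389-25508638 on the plus strand for FKF1, with the motif in capitals (CACGTG in LHY and PRR7, the evening element read on the other strand in FKF1), which begins 80, 201 and 186 bases before the start.
LHY: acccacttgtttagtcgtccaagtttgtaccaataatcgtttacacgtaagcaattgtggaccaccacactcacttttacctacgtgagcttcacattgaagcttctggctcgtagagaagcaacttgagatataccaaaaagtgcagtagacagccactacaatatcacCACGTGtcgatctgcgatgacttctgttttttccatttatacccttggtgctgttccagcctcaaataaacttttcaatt
PRR7: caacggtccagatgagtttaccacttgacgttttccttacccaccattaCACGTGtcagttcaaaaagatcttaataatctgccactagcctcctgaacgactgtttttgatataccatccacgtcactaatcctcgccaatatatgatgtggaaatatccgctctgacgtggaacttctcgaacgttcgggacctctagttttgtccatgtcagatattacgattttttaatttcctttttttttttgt
FKF1: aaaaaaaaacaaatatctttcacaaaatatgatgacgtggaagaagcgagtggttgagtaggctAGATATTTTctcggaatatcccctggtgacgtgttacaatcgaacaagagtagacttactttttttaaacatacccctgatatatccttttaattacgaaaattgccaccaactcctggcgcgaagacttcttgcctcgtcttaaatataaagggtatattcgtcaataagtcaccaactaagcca

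Auxin genes stood higher. Of 35 genes 33 were tested, 13 were called higher and 1 lower, beside 15.3% and 13.8% of all genes. The median was 0.46 against pool 2 and 0.46 against Col-0. With 1 library left out, 9 or 10 were called higher. In VP16-05-014 over its own pool the median was 0.38, with 3 called higher, and the effect differed between the lines in 0 members. Auxin is made by flavin monooxygenases of the YUC family, and YUC2, a leaf member, had 4.801, 5.24 and 4.43 CPM in VP16-02-003 and 1.80, 2.14 and 2.82 CPM in pool 2 (log2 fold change 1.11, SE 0.21, adjusted p = 0.000623). YUC9, another member, had 9.52, 5.95 and 7.56 CPM in VP16-02-003 and 0.139, 0.733 and 1.26 CPM in pool 2 (log2 fold change 3.49, SE 0.66, adjusted p = 0.000571). YUC8 was called at 1.37, while YUC3, YUC5 and YUC6 stood at -0.15, -0.51 and -0.39 and were not. IAA19, a repressor that auxin itself induces, had 17.2, 12.5 and 14.2 CPM in VP16-02-003 and 4.93, 5.50 and 5.11 CPM in pool 2 (log2 fold change 1.49, SE 0.26, adjusted p = 0.000274). SAUR19, which promotes cell expansion, had 6.85, 5.67 and 6.19 CPM in VP16-02-003 and 2.46, 2.62 and 3.45 CPM in pool 2 (log2 fold change 1.14, SE 0.26, adjusted p = 0.00253). In YUC2, YUC9, IAA19 and SAUR19, picked for small adjusted p, the groups did not overlap, as in 44.9% of all genes tested. IAA5, IAA17 and IAA29 changed by 1.38, 0.54 and 2.02. The auxin exporters PIN3 and PIN4 changed by 0.65 and 0.37, whereas PIN7, at -0.41, was not called. TAR2, an aminotransferase of the step before YUC, was the member called lower, at -0.37 (adjusted p = 0.0213), and no member was called lower without VP16-02-003 A.

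Of 15 shade-response genes 4 were called higher and 0 lower, beside 15.3% and 13.8% of all genes. ATHB4, a homeodomain factor of the shade response, had 8.19, 7.16 and 6.34 CPM in VP16-02-003 and 0.833, 2.06 and 3.65 CPM in pool 2 (log2 fold change 1.77, SE 0.43, adjusted p = 0.00409). PAR1, a brake on that response, had 9.76, 9.57 and 11.2 CPM in VP16-02-003 and 2.98, 3.64 and 4.57 CPM in pool 2 (log2 fold change 1.46, SE 0.40, adjusted p = 0.00948). CKX5, which degrades cytokinin, had 4.17, 2.41 and 2.06 CPM in VP16-02-003 and 1.70, 1.69 and 1.17 CPM in pool 2 (log2 fold change 0.89, SE 0.26, adjusted p = 0.0136), and the red-light receptor PHYB had 92.1, 75.1 and 74.0 CPM in VP16-02-003 and 68.7, 69.5 and 55.0 CPM in pool 2 (log2 fold change 0.32, SE 0.10, adjusted p = 0.0162). The calls of CKX5 and PHYB were lost without VP16-02-003 A or pool 2 C, with adjusted p of up to 0.154 and 0.137. PIF4 and PIF5, which drive elongation, stood at -0.03 and -0.17, and PIL1 and ATHB2, standard shade markers, at 1.22 and 1.09. None of these 4 was called.

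Wall-loosening genes changed member by member. Expansins loosen the wall in acid, and of 12 tested, 2 were called higher and 5 lower, beside 15.3% and 13.8% of all genes. EXPA16 had 13.4, 21.3 and 18.9 CPM in VP16-02-003 and 2.19, 2.12 and 3.36 CPM in pool 2 (log2 fold change 2.83, SE 0.42, adjusted p = 6.63e-05). EXPA8 had 14.5, 12.97 and 13.1 CPM in VP16-02-003 and 37.2, 33.6 and 33.2 CPM in pool 2 (log2 fold change -1.36, SE 0.24, adjusted p = 0.000309). EXP3 had 18.18, 18.0 and 13.6 CPM in VP16-02-003 and 26.1, 27.6 and 32.1 CPM in pool 2 (log2 fold change -0.78, SE 0.18, adjusted p = 0.00262). EXPA11 had 19.8, 16.1 and 20.0 CPM in VP16-02-003 and 26.4, 26.4 and 26.6 CPM in pool 2 (log2 fold change -0.51, SE 0.17, adjusted p = 0.0298), a call lost without VP16-02-003 B or pool 2 A (adjusted p up to 0.135), and EXPA1 changed by 0.53. Without VP16-02-003 B 2 expansins were called lower, without VP16-02-003 C or any pool 2 library 3, and 1 was called higher without VP16-02-003 A or any pool 2 library. The XTH enzymes cut and rejoin xyloglucan, and of 18 tested, 6 were called higher and 3 lower. XTH15 had 6.06, 7.30 and 10.08 CPM in VP16-02-003 and 1.11, 0.705 and 0.584 CPM in pool 2 (log2 fold change 3.26, SE 0.28, adjusted p = 3.27e-08). XTH33 had 2.60, 1.77 and 2.83 CPM in VP16-02-003 and 0.416, 0.423 and 0.292 CPM in pool 2 (log2 fold change 2.61, SE 0.50, adjusted p = 0.000671). XTH25 had 5.04, 4.18 and 5.19 CPM in VP16-02-003 and 0.798, 0.733 and 0.535 CPM in pool 2 (log2 fold change 2.77, SE 0.61, adjusted p = 0.00202). XTH6 had 42.8, 46.1 and 51.6 CPM in VP16-02-003 and 64.4, 64.1 and 57.1 CPM in pool 2 (log2 fold change -0.40, SE 0.10, adjusted p = 0.00455). XTH15 stood above every other library of the series. In these 4 XTH genes, picked for small adjusted p, the groups did not overlap, as in 44.9% of all genes tested. XTH24 and XTH4 were called higher, at 0.84 and 0.72, and XTH31 and XTH17 lower, at -2.34 and -1.12. TCH4 stood at -0.90 and was not called.

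Of 28 tested gibberellin and brassinosteroid genes, hormones of growth, 10 were called higher and 3 lower, beside 15.3% and 13.8% of all genes. The median was 0.21 against pool 2 and 0.13 against Col-0. The number higher was 4 without VP16-02-003 C and 6 without pool 2 B or pool 2 C. BR6OX2, which makes brassinolide, had 60.05, 44.4 and 49.3 CPM in VP16-02-003 and 17.2, 15.8 and 11.6 CPM in pool 2 (log2 fold change 1.78, SE 0.21, adjusted p = 3.84e-06). DWF1, an early sterol enzyme of the same route, had 397, 384 and 408 CPM in VP16-02-003 and 277, 315 and 317 CPM in pool 2 (log2 fold change 0.39, SE 0.07, adjusted p = 0.000512). CPD and DWF4, other enzymes of the route, changed by 0.75 and 0.44, and BR6OX1, nearly silent here with 0.149 ± 0.0685 CPM in VP16-02-003 and 0.549 ± 0.157 CPM in pool 2 (SD, n = 3 each), changed by -1.84. The receptor BRI1 and the factors BZR1 and BES1 changed by 0.47, 0.32 and 0.20. GAI, a DELLA repressor of gibberellin responses, had 51.5, 45.9 and 49.8 CPM in VP16-02-003 and 21.2, 23.9 and 26.5 CPM in pool 2 (log2 fold change 1.04, SE 0.19, adjusted p = 0.00047). RGL3, a DELLA linked to jasmonate, had 0.630, 0.921 and 0.535 CPM in VP16-02-003 and 1.53, 2.26 and 2.92 CPM in pool 2 (log2 fold change -1.65, SE 0.30, adjusted p = 0.000431). The gibberellin oxidases GA20OX1, GA20OX2 and GA3OX1 stood at -0.20, -0.46 and -0.04 and were not called. BR6OX2, DWF1 and GAI were higher, and RGL3 lower, in every library of the line than in any of pool 2. They were picked for small adjusted p, and groups were apart in 44.9% of all genes tested.

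Cold and abscisic acid genes were called lower more often than higher, with most members not called. Of 27 genes, all tested, 11 were called lower and 3 higher, beside 13.8% and 15.3% of all genes. The median was -0.35 against pool 2 and -0.73 against Col-0. COR413-PM1, a membrane protein that cold induces, had 89.5, 87.8 and 93.5 CPM in VP16-02-003 and 197, 190.1 and 204 CPM in pool 2 (log2 fold change -1.12, SE 0.13, adjusted p = 3.96e-06). COR15B, which protects plastid membranes in frost, had 19.3, 22.5 and 22.9 CPM in VP16-02-003 and 71.2, 61.0 and 85.01 CPM in pool 2 (log2 fold change -1.74, SE 0.29, adjusted p = 0.00018). KIN2, a small hydrophilic protein, had 73.9, 69.5 and 69.1 CPM in VP16-02-003 and 149.6, 144 and 180.2 CPM in pool 2 (log2 fold change -1.16, SE 0.22, adjusted p = 0.000518). In these 3 genes, picked for small adjusted p, the groups were apart, as in 44.9% of all genes tested. Col-0 had 147, 102 and 94.7 CPM of COR15B and 277, 250.4 and 251 CPM of KIN2. ABF3, an abscisic acid factor, had 26.8, 28.1 and 28.7 CPM in VP16-02-003 and 16.9, 18.0 and 20.6 CPM in pool 2 (log2 fold change 0.60, SE 0.10, adjusted p = 0.000154), higher in every library of the line. NCED3, the key step of abscisic acid synthesis, changed by -1.001, ERD10 by -0.69 and RD26 by -1.14, while RD29A, RD29B and COR47 stood at -0.83, 0.09 and 0.12 and were not called. HAB1, a phosphatase that restrains the hormone response, was called higher at 0.63.

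Of 24 salicylate defence genes 4 were called higher and 1 lower, beside 15.3% and 13.8% of all genes, and the list median was 0.35 against pool 2 and 1.07 against Col-0. Against Col-0, 14 were called higher in VP16-02-003 and 0 lower, beside 12.3% and 10.8% of all genes. Pool 2 over Col-0 had a median of 0.98 with 0 called higher, beside 0.0153% of all genes. WRKY70, a switch between salicylate and jasmonate responses, had 45.5, 72.5 and 63.1 CPM in VP16-02-003 and 197, 160.2 and 145 CPM in pool 2 (log2 fold change -1.47, SE 0.32, adjusted p = 0.00212). AIG1, a GTP-binding protein of defence, had 36.6, 116 and 55.0 CPM in VP16-02-003 and 34.5, 15.03 and 15.4 CPM in pool 2 (log2 fold change 1.67, SE 0.58, adjusted p = 0.0333), PAD3, the last enzyme of camalexin synthesis, had 16.4, 24.5 and 20.5 CPM in VP16-02-003 and 11.9, 5.56 and 5.06 CPM in pool 2 (log2 fold change 1.45, SE 0.52, adjusted p = 0.0398), and NPR1, the salicylate receptor, had 48.6, 51.7 and 48.3 CPM in VP16-02-003 and 37.6, 35.1 and 33.7 CPM in pool 2 (log2 fold change 0.48, SE 0.17, adjusted p = 0.0341). The AIG1 call was lost without VP16-02-003 B or pool 2 B or C (adjusted p up to 0.218), that of PAD3 without VP16-02-003 B or C or pool 2 B or C (adjusted p up to 0.141), and that of NPR1 with any library left out (adjusted p up to 0.0987). No member was called higher without VP16-02-003 B, pool 2 B or pool 2 C, 2 without VP16-02-003 C and 7 without pool 2 A. PR1, the standard marker, had 353, 519.8 and 228 CPM in VP16-02-003 and 359.9, 152 and 150.5 CPM in pool 2 and was not called (log2 fold change 0.73, SE 0.58, adjusted p = 0.356).

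Heat shock genes of the list reached at most 16.9 CPM in VP16-02-003, pool 2 and Col-0. Of 17 genes 12 were tested, 6 were called lower and 0 higher, beside 13.8% and 15.3% of all genes. The median was -0.67 against pool 2 and 0.06 against Col-0. HSFB2A, a heat shock factor of the repressing class, had 1.73, 2.76 and 2.29 CPM in VP16-02-003 and 7.60, 5.98 and 6.47 CPM in pool 2 (log2 fold change -1.55, SE 0.29, adjusted p = 0.000511), with no overlap. HSP90.1 and HSP70, chaperones, changed by -1.24 and -1.29 and HSP18.2 by -0.75, and the HSP90.1 call was lost without pool 2 A (adjusted p up to 0.0586), that of HSP70 without VP16-02-003 C or pool 2 A (adjusted p up to 0.0923) and that of HSP18.2 without VP16-02-003 B or C or pool 2 A (adjusted p up to 0.0798). The number lower was 3 without VP16-02-003 C and 1 without pool 2 A. Against Col-0, 1 member was called lower and 2 higher, beside 10.8% and 12.3% of all genes, and HSP90.1, at 0.22, was not called.

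Tau-class glutathione transferases, which join glutathione to foreign and natural compounds, included genes called in either direction. Of 26 genes 19 were tested, 4 were called higher and 5 lower, beside 15.3% and 13.8% of all genes, and the number higher was 2 without pool 2 B. Beside GSTU26, described with the clearest differences, GSTU16, GSTU4 and GSTU9 were higher, with 19.6, 15.4 and 17.7 CPM in VP16-02-003 and 11.5, 10.01 and 11.9 CPM in pool 2 for GSTU16 (log2 fold change 0.66, SE 0.11, adjusted p = 0.000245). GSTU18 had 26.4, 23.5 and 26.0 CPM in VP16-02-003 and 36.7, 38.4 and 41.9 CPM in pool 2 (log2 fold change -0.62, SE 0.09, adjusted p = 5.88e-05). GSTU5 had 72.2, 63.7 and 66.4 CPM in VP16-02-003 and 122, 118 and 141 CPM in pool 2 (log2 fold change -0.91, SE 0.16, adjusted p = 0.000282). GSTU20, which also belongs to the aliphatic glucosinolate list, changed by -0.98, and GSTU13 by -0.72. GSTU16, GSTU18 and GSTU5, picked for small adjusted p, showed no overlap between the groups, as did 44.9% of all genes tested.

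Genes of iron status, where called against pool 2, were all lower. Of 19 genes 17 were tested, 10 were called lower and 0 higher, beside 13.8% and 15.3% of all genes. The median was -0.80 against pool 2 and -0.42 against Col-0, and the median of pool 2 over Col-0 was 0.47. FRO7, the plastid iron reductase, had 53.0, 54.2 and 58.4 CPM in VP16-02-003 and 119.7, 118 and 98.2 CPM in pool 2 (log2 fold change -1.02, SE 0.18, adjusted p = 0.000342). OPT3, which loads iron into the phloem, had 73.5, 69.2 and 56.1 CPM in VP16-02-003 and 119, 123 and 105 CPM in pool 2 (log2 fold change -0.80, SE 0.16, adjusted p = 0.00101). Both were picked for small adjusted p. Their levels in VP16-02-003 were below those of pool 2 in every library, and 44.9% of all genes tested had groups apart. The loci AT1G47400 and AT1G47395 changed by -1.85 and -1.94. NAS4, which makes the iron chelator nicotianamine, changed by -1.04, and BTS, the iron sensor that marks factors for breakdown, by -0.37. The deficiency regulators BHLH100 and BHLH101 were nearly silent, with 0.0753 ± 0.00403 CPM in VP16-02-003 and 0.617 ± 0.165 CPM in pool 2 for BHLH100. The iron stores FER2, FER3 and FER4 stood at 0.35, 0.20 and 0.15 and were not called. Against Col-0, 2 members were called lower and 1 higher, beside 10.8% and 12.3% of all genes. In VP16-05-014 over its own pool the median was -0.36, and the effect differed between the lines in 0 members.

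For phosphate starvation, 5 of 16 tested genes were called lower and 1 higher, beside 13.8% and 15.3% of all genes. SPX1, a phosphate sensor, had 6.30, 5.32 and 6.57 CPM in VP16-02-003 and 41.5, 18.5 and 12.7 CPM in pool 2 (log2 fold change -2.01, SE 0.69, adjusted p = 0.0329) beside 7.47, 6.29 and 6.04 CPM in Col-0. Pool 2 lay above Col-0 in these values but was not called against it. PHT1;4, a phosphate importer, and SRG3 and MGD3, which remodel lipids, changed by -1.41, -1.68 and -2.15. The call of SPX1 was lost without VP16-02-003 A, B or C or pool 2 A (adjusted p up to 0.169), that of PHT1;4 without VP16-02-003 C or pool 2 A (adjusted p up to 0.0995), that of SRG3 without VP16-02-003 A or pool 2 A (adjusted p up to 0.0902) and that of MGD3 without VP16-02-003 A or B or pool 2 A or B (adjusted p up to 0.101). No member was called lower without pool 2 A or against Col-0. For nitrate assimilation, 4 of 12 genes were called lower and 1 higher, beside the same shares of all genes. NIA1, a nitrate reductase, had 299, 349 and 373 CPM in VP16-02-003 and 189, 208 and 186 CPM in pool 2 (log2 fold change 0.81, SE 0.23, adjusted p = 0.0119). LBD37, a repressor that nitrogen induces, had 59.9, 93.8 and 80.0 CPM in VP16-02-003 and 130.1, 118 and 112 CPM in pool 2 (log2 fold change -0.62, SE 0.15, adjusted p = 0.00459), and its relative LBD39 changed by -0.51. UPM1, which makes the siroheme that nitrite and sulfite reductases share, changed by -0.40, a call lost without VP16-02-003 A (adjusted p up to 0.0646), and against Col-0 no member of the list was called lower.

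Of 17 flowering-time genes 10 were tested, 3 were called higher and 1 lower, beside 15.3% and 13.8% of all genes. SOC1, which integrates flowering signals, had 61.2, 68.1 and 77.8 CPM in VP16-02-003 and 41.2, 38.2 and 42.9 CPM in pool 2 (log2 fold change 0.76, SE 0.17, adjusted p = 0.00273). FUL, a meristem and fruit identity gene, had 1.495, 1.84 and 2.83 CPM in VP16-02-003 and 0.625, 0.649 and 0.681 CPM in pool 2 (log2 fold change 1.65, SE 0.33, adjusted p = 0.00097). AGL24, a partner of SOC1, had 9.44, 9.43 and 10.2 CPM in VP16-02-003 and 14.5, 14.4 and 18.9 CPM in pool 2 (log2 fold change -0.71, SE 0.12, adjusted p = 0.000272). SPL4, an age-linked factor, changed by 1.20, and the flower marker SEP3 at 0.929 ± 0.0725 CPM in VP16-02-003 and 0.412 ± 0.0343 CPM in pool 2 was called with adjusted p = 0.0401, a call lost with any library left out (adjusted p up to 0.109). SOC1 and FUL were higher, and AGL24 lower, in each VP16-02-003 library than in any of pool 2. All were picked for small adjusted p, and 44.9% of all genes tested had groups apart. FLC and SVP, repressors of flowering, stood at -0.40 and -0.32 and were not called.

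The nuclear genes of the photosystems and Rubisco, which mark green tissue, had 5 of 32 members called lower and 0 higher, beside 13.8% and 15.3% of all genes, with a median of -0.09 against pool 2 and -0.20 against Col-0. LHCB2.3, a light-harvesting protein, had 1024, 971 and 1135 CPM in VP16-02-003 and 1129, 1468 and 1784 CPM in pool 2 (log2 fold change -0.49, SE 0.11, adjusted p = 0.0035), with overlapping groups. PSAH2, PSBO2, PSBP-1 and PSBQ-2 changed by -0.26, -0.30, -0.27 and -0.27, and the number called was 1 without VP16-02-003 B or pool 2 C, 3 without VP16-02-003 A or C and 9 without pool 2 A. RBCS1A, the main Rubisco small subunit, was at 0.06. Of 24 cell cycle and replication genes, 2 were called lower, PCNA1 at -0.41 and CYCB2;1 at -0.54, and 0 higher, and none was called lower without VP16-02-003 B, VP16-02-003 C or pool 2 C and 5 without pool 2 A. Of 8 senescence genes 7 were tested and 1 was called, NYC1, a chlorophyll b reductase, with 95.1, 100.3 and 103 CPM in VP16-02-003 and 151, 147 and 147 CPM in pool 2 (log2 fold change -0.57, SE 0.07, adjusted p = 3.96e-06). In bulk tissue, fewer cells of a type and less RNA in each cell cannot be told apart.

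**Figure D4:**
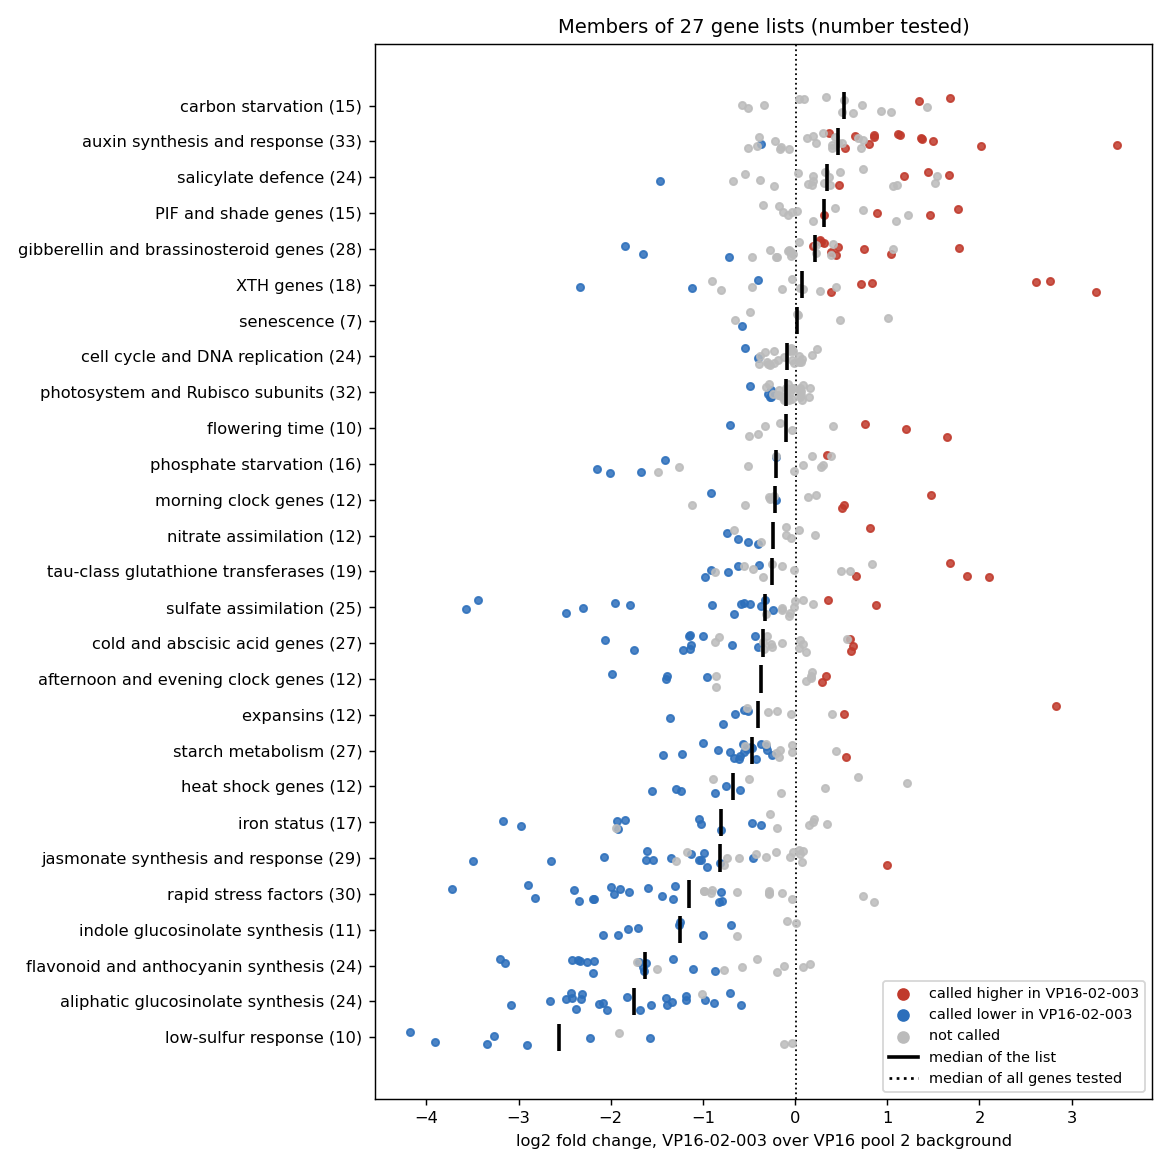
Log2 fold changes of VP16-02-003 over the VP16 pool 2 background for the tested members of each gene list, with the number tested beside the name. Red points were called higher, blue points lower and grey points not called; black bars are list medians and the dotted line is the median of all genes. The low-sulfur and aliphatic glucosinolate lists lie farthest to the left, with medians of -2.57 and -1.75.

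List medians are set side by side for either control, since both comparisons share the VP16-02-003 libraries. The aliphatic glucosinolate, indole glucosinolate, flavonoid, jasmonate and starch medians were negative against either control. The median was -2.57 against pool 2 and -1.82 against Col-0 for the low-sulfur genes, and -1.15 and -0.56 for the rapid stress factors. The heat shock, nitrate and phosphate lists had medians against Col-0 of 0.06, -0.02 and 0.11. The salicylate median over Col-0 was 1.07 in VP16-02-003 and 0.98 in pool 2. The auxin median was 0.46 against either control.

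**Figure D5:**
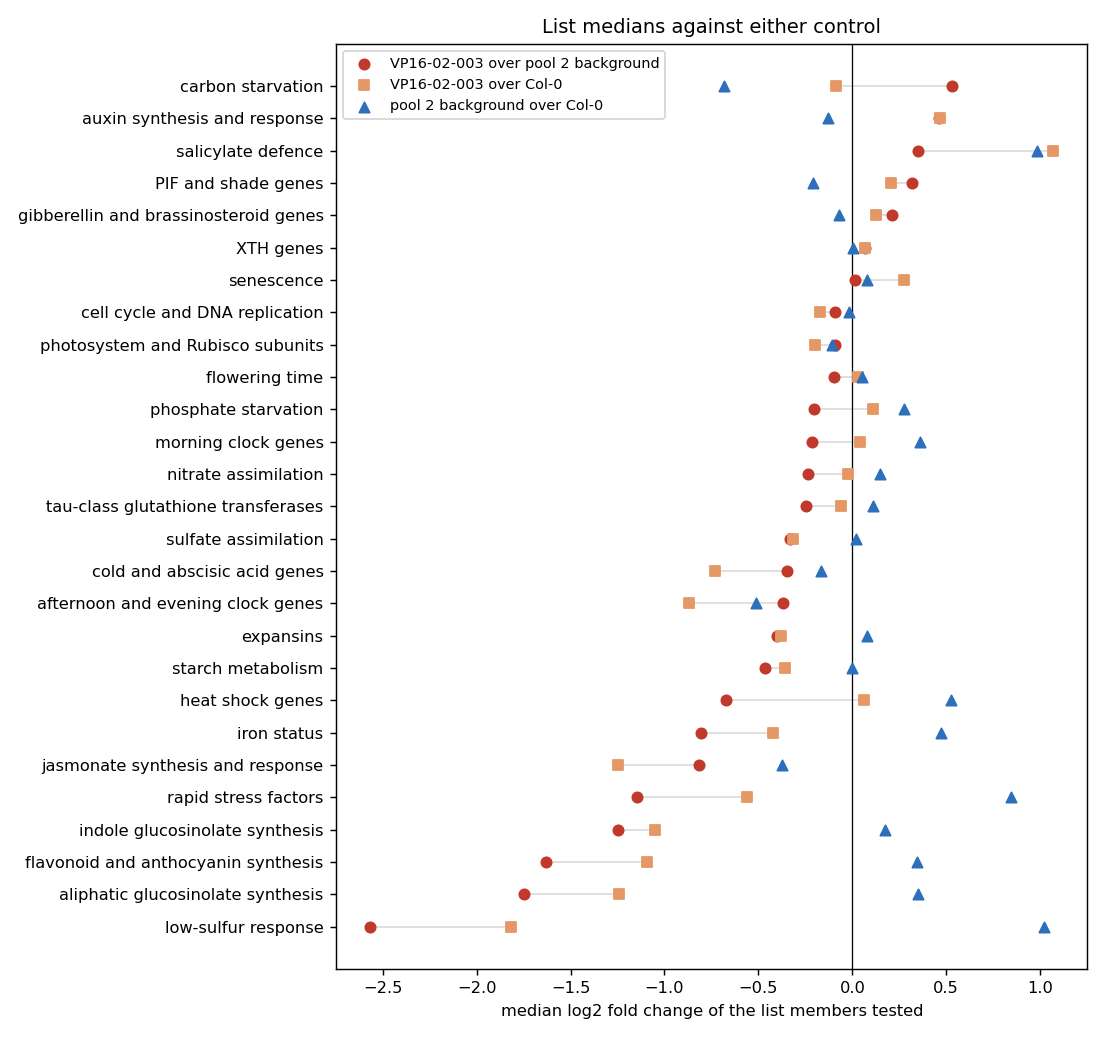
Median log2 fold change of each gene list in VP16-02-003 over pool 2 (red circles), VP16-02-003 over Col-0 (orange squares) and pool 2 over Col-0 (blue triangles). The red and orange medians lie on the same side of 0 for the glucosinolate, flavonoid, jasmonate, starch and auxin lists, and the blue triangles of the low-sulfur and salicylate lists lie near 1, at 1.02 and 0.98.

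The use of strand in the authors' counting is not given in the sources used here, so reads of a gene that overlaps another annotated gene cannot be told apart from those of its partner. Among the called genes named here this touches AT1G20470, AT1G17200, AT4G16960, ORP1A, APR1, AT4G13575, XTH15, APS3, APS2, APR3, APR2, SERAT2;1, SERAT2;2, AT1G04770, BCAT4, IMD1, SOT18, GSTF10, TT19, MYC2, ORA47, WRKY33, WRKY40, WRKY53, LSF1, BAM3, PHS2, APL1, SS2, SBE2.1, BAM4, STP1, LNK2, LNK1, FKF1, LKP2, IAA5, CKX5, DWF1, CPD, BZR1, BES1, COR15B, ABF3, NPR1, GSTU18, BHLH101, SRG3, UPM1, SPL4, LHCB2.3, PSAH2 and PSBP-1. Close copies can also share reads, so the split within CYP79F1 and CYP79F2, MAM1 and MAM3, GSTF9 and GSTF10, VSP1 and VSP2, AOC1 to AOC4, COR15A and COR15B, KIN1 and KIN2, AT1G47400 and AT1G47395, FRO6 and FRO7, the SAUR19 group, the APR genes and the LHCB and RBCS copies, and between AT4G16960 and its disease-resistance relatives, is uncertain.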

How the data were processed

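RNA sequencing of shoots gave 30 libraries, 3 in each of 10 groups, 6 of which make up the comparison of VP16-02-003 with the VP16 pool 2 background. The authors deposited a table of raw read counts for each library, whole numbers that carry no normalisation. Per the submitters' processing notes, the tools included TopHat2 2.0.5 and HTSeq and the build was TAIR10, but the notes do not say what each did. Strand use, the annotation and the HTSeq mode are not given in the sources used here. A table has 32679 entries for genes and VP16, and 5 further entries without a gene, which stayed out of library sizes and tests. In the libraries of VP16-02-003, pool 2 and Col-0, the entries for reads on no feature held 0.884 to 1.29% and those for ambiguous reads 1.32 to 1.47% of the reads. RefSeq's TAIR10.1 gave names, products, coordinates and the sequences before gene starts, and 31912 loci matched it.

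The counts were fitted with edgeR 4.0.16 (R 4.3.3). The filter was filterByExpr, given the groups and a minimum count of 10, the scaling was TMM, and the quasi-likelihood model of group means was fitted to all 30 libraries, which shared 1 estimate of the spread (common biological coefficient of variation 0.13). P-values were adjusted by Benjamini-Hochberg over the 19566 genes of a comparison. An SD is that of 3 libraries, an SE that of a log2 fold change. The fit was tested on simulated data. The alternatives were DESeq2 1.42.0, RLE size factors, library size alone, no count filter, organelle genes left out, the libraries of a contrast alone, the replicate letter as a block, Col-0 in place of the pool, and leaving out each library. Replicate letters recur in every group, and the deviations of like-lettered libraries from their group means had correlations of 0.0461, -0.107 and 0.187, so the letters were not read as a pairing. Python 3.11.15 with matplotlib 3.10.9 drew the figures.

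The lists and members were chosen with earlier results of these data known. They were described by counts and medians, with no test of a list. Of the listed genes 565 matched the reference by symbol and 18 by locus code only, and 1 aliphatic glucosinolate gene, AOP2, was not analysed here. Named genes are list members, with values per library for up to 4 called members of the smallest adjusted p, the 12 largest and 12 smallest called fold changes with a mean of at least 5 CPM in the higher group and groups that do not overlap, the 6 smallest adjusted p in each direction of the comparison and of the difference of effects, the 2 nearest loci on either side of the 3 genes of smallest adjusted p that differ at least 4-fold, and the entry VP16. No pair of libraries was identical, and counting error is smaller than the spread between replicates.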

Additional observations from a re-analysis of the deposited data

Results flagged for a closer look

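The difference between the effect of VP16-02-003 over its pool and that of VP16-05-014 over its own pool was past the threshold of edgeR's quasi-likelihood test in 359 genes, and the genes with the smallest adjusted p in each direction are given here. On the log2 scale the effect was higher in VP16-02-003 by 2.90 in AT1G20490, 2.65 in AT1G35320, 2.56 in AT1G59660, 2.14 in GSTU26, 1.06 in YAB3 and 0.99 in AT1G21080. It was lower by -2.94 in AT3G21020, -2.08 in CYP97B3, -1.50 in AT2G43535, -1.08 in AT4G13575, -1.04 in AT5G05060 and -0.87 in GSTF10. In CYP97B3, GSTU26 and YAB3 the effect in VP16-05-014 was within 0.1 of 0. No explanation was tested.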

How the results depend on the processing

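The comparison of VP16-02-003 with pool 2 called 5694 genes, and with 1 library left out 3756 to 4779, of which 1802 to 2522 were higher and 1750 to 2589 lower. It called 5807 genes with the replicate block, 2926 higher and 2881 lower, and 5655 with library size alone, 5709 with DESeq2 and 4531 with Col-0 as the control. The block left the totals within 1.5 times, and like-lettered libraries share only a letter. Within the lists it moved the counts of carbon starvation genes called higher to 9 against 2, of photosystem genes called lower to 1 against 5, of cell cycle genes called lower to 4 against 2, of flowering genes called lower to 3 against 1 and of XTH genes called lower to 5 against 3, and it moved 7 other list counts, each to 1 or 2. The number of genes whose effect differed from that of VP16-05-014, 359, moved more. It was 544 with DESeq2, 337 of them lower, and 81 (40 higher, 41 lower) with the libraries of the contrast alone. It was 37 (19 higher, 18 lower) with the replicate block, and 108 were lower with library size alone. With 1 library left out it was 153 to 683, of which 73 to 207 were higher and 70 to 476 lower, with the highest number without VP16-05-014 B and the lowest without VP16-02-003 C. The cause was not tested.

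The log2 fold change of HSP90.1 turned to 0.22 with Col-0 as the control, that of AT4G15120 to 0.286 and that of AT1G20480 to -0.423. With 1 library left out AT4G15120 ranged from -0.554 to 0.0607, positive without VP16-02-003 A, and AT1G20480 from -0.0423 to 0.161, negative without pool 2 A. The entry VP16 ranged from -0.184 to 0.147, negative without pool 2 A or VP16-02-003 B, and stood at -0.0093 without organelle genes. Of the named genes, 132 were called and 104 of them were called in all 6 fits with 1 library left out, in which a lone pair stands for its group. List medians kept their sign with RLE size factors and library size alone. With Col-0 as the control those of the heat shock, phosphate, carbon starvation, morning clock and flowering lists turned, to 0.06, 0.11, -0.09, 0.04 and 0.03. Over all alternatives, 137 list counts moved by over 1.5 times and 675 did not. Genes of low level are limited by the VP16-02-003 libraries, the shallower group.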
